A study of Mus musculus and Homo sapiens with 12 samples.

Results

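A group of 9 genes that mark immune cells was followed through the histone acylation maps of mouse large intestine. They were taken by name: Ptprc and Ikzf1, which most leukocytes express, the B cell genes Cd79a, Cd79b, Cd74 and Ikzf3, the T cell genes Cd3e and Cd3g, and the myeloid gene Lyz2. They are 9 of the 49939 RefSeq genes on chromosomes 1 to 19, X and Y, and the rule that takes them uses no value of these maps. The members, and the lists of other genes set beside them below, were however chosen with earlier results of these data known. A gene was given every listed region that overlapped its body or the 10 kb on either side of it, so that the 9 windows together covered 505 kb.

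The maps came from CUT&Tag, a method that directs a transposase to a histone mark with an antibody and sequences the fragments it releases nearby. Each of 8 libraries was made from about 30 mg of frozen large intestine of male CETP-ApoB-100 transgenic mice, an atherosclerosis model that carries human genes of lipid transport. The methods also call the animal an ApoE-deficient transgenic mouse. Acetyl-lysine (Kac) was mapped at H3K18 and H4K12 in 2 replicates each, labelled as high fat, high sucrose (HFHS) diet. Butyryl-lysine (Kbu) was mapped at the same residues in 2 replicates each, labelled as the same diet with 5% of the fibre arabinoxylan. The acyl group and the labelled diet therefore differed together and cannot be told apart. The methods describe arabinoxylan for all animals of the high fat, high sucrose arm, and a control arm on a low fat diet. The titles of the Kac libraries carry the letters cnt. The ages of the animals are not given in the sources used here, and neither the labels nor the methods say which replicates came from which animal, so that the spread between replicates may be technical in part. The labels call the tissue colon epithelium, whereas the methods describe the dissected large intestine as a whole.

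The wall of the large intestine holds lymphocytes between its epithelial cells, and B cells, plasma cells, T cells and macrophages in the lamina propria and in lymphoid follicles beneath it. Bacteria in the lumen ferment fibre to butyrate, which reaches these cells as well as the epithelium, can serve as donor for histone butyrylation and inhibits histone deacetylases. Acetylation of H3K18 and H4K12 is found at promoters and enhancers of active genes. In a map of whole tissue a cell type that is rare gives few fragments, and fewer cells of a type and less of a mark per cell cannot be told apart in any of the values below.

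The lists differed in depth and in a way that touched these genes directly. Each was called in its own library without a control, at p below 0.01 and with a limit of 300000 rows. The Kac lists held between 299623 and 299861 rows, so that the limit set their length, and the Kbu lists held 60813 and 50675 rows for H3K18bu and 50932 and 96432 for H4K12bu. Rows that overlapped were merged to regions. The pileup, the number of extended read ends at the highest place of a row, was solved from the deposited fold and p of each row. A pileup of 1 made up 89.9, 90.6, 91.4 and 89.2% of the rows of the 4 Kbu libraries in that order, and 72.1, 52.0, 52.8 and 12.8% of the rows of H3K18ac replicates 1 and 2 and H4K12ac replicates 1 and 2. The background of the lists corresponded to at most 1.56, 2.65, 2.24 and 3.77 M read ends in the 4 Kac libraries and to at most 0.374 M in each Kbu library. A single read end, extended to 73 bp, gives a row of that length, and 18.7, 19.1, 18.5 and 18.9% of the rows of the 4 Kbu libraries and 36.0, 50.6, 47.7 and 28.6% of those of the 4 Kac libraries had it. A longer row with a pileup of 1 holds more than 1 end side by side, whereas 2 separate rows of 73 bp count as 2 regions, so that a region does not stand for a fixed number of ends. The absence of a row says only that nothing passed the threshold at this depth.

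In every Kac list the rows with a pileup of 1 were tied at the lowest p, and the row limit fell inside the ties. Tied rows were kept only on the chromosomes that come first when names are sorted as text, up to a part of chromosome 9 in H3K18ac replicate 1, up to chromosome 14 in H3K18ac replicate 2, up to chromosome 13 in H4K12ac replicate 1 and on a part of chromosome 1 in H4K12ac replicate 2. Of the members, Ptprc on chromosome 1, Lyz2 on chromosome 10 and Ikzf1, Ikzf3 and Cd79b on chromosome 11 lie where most lists kept these rows. Cd79a on chromosome 7, Cd3e and Cd3g on chromosome 9 and Cd74 on chromosome 18 lie where tied rows remained in H3K18ac replicate 1 at most. Acetyl counts at the members and their test differences are therefore given with and without the 216068, 155849, 158414 and 38445 tied rows of these 4 lists.

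**Figure D1:**
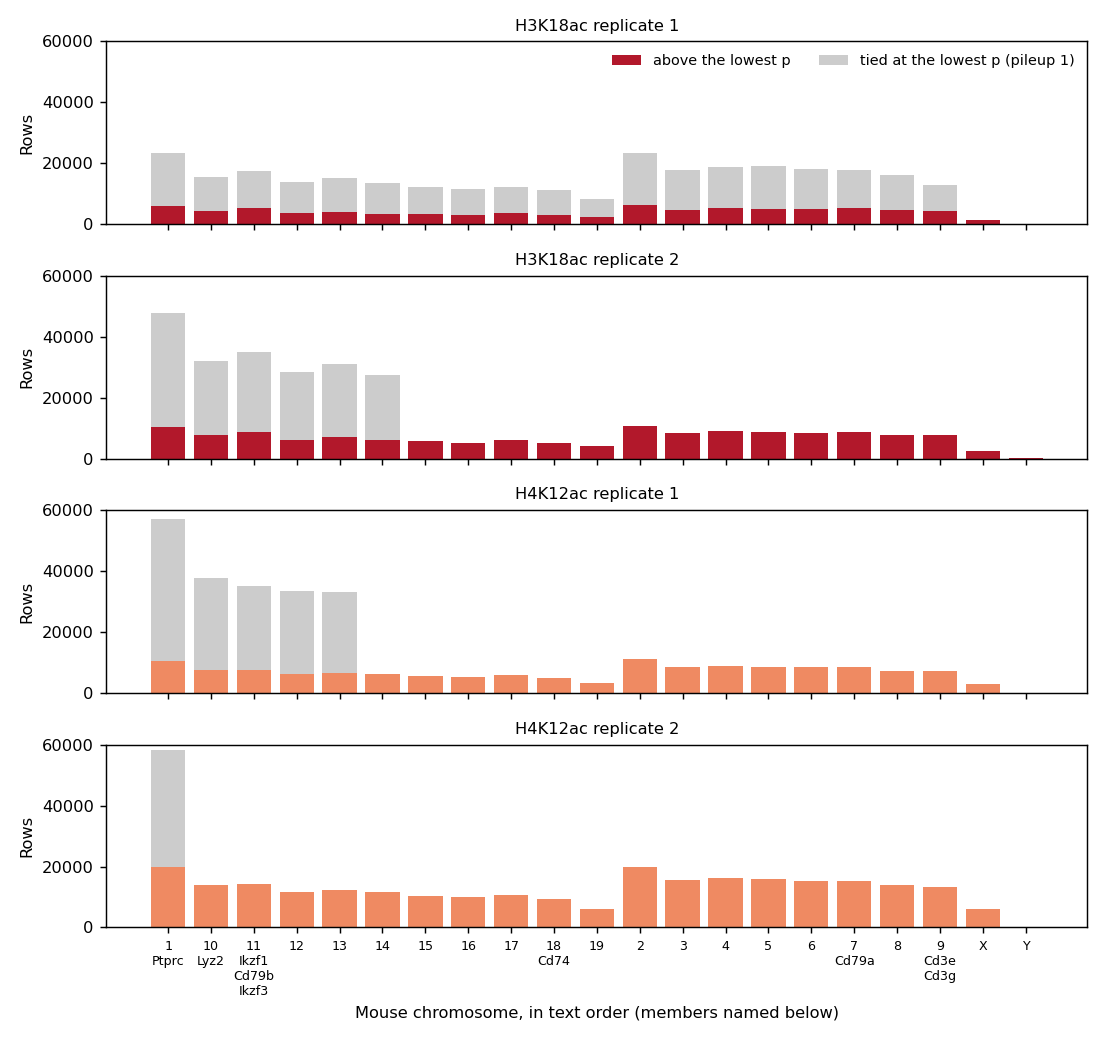
Rows of the 4 acetyl lists (y axis, counts) by mouse chromosome in text order (x axis), with coloured bars for rows above the lowest p of the list and grey bars for rows tied at it. Grey bars stop after chromosome 14 in H3K18ac replicate 2, after chromosome 13 in H4K12ac replicate 1 and after chromosome 1 in H4K12ac replicate 2, and the members are named below their chromosomes.

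Butyryl regions at the 9 genes were nearly all of the lowest height, and none was shared by replicates. All 4 Kbu libraries together listed 57 regions in the 9 windows, 14 and 12 for H3K18bu replicates 1 and 2 and 10 and 21 for those of H4K12bu. Of these, 56 had a pileup of 1 and 1 had a pileup of 2, and none had q below 0.05. No member had a region that both replicates of a Kbu mark shared, at 1 bp of overlap or more. Over the 9 windows as a whole these were 2.77, 2.38, 1.98 and 4.16 regions per 100 kb, beside 2.23, 1.86, 1.87 and 3.54 over the 4 libraries, so that the pooled density was not below that of the genome at large. Ikzf1, Ikzf3 and Cd79b lie on chromosome 11, where the Kbu libraries listed 3.18, 2.67, 2.60 and 5.03 per 100 kb. Chromosomes were not allowed for, so that no excess at these genes can be read from the pooled values. Ikzf1 alone gave 21 of the 57 regions, and the median density of the members was 0.986, 0, 0 and 3.76 per 100 kb. The acetyl lists held 92 and 150 regions for H3K18ac replicates 1 and 2 and 128 and 133 for those of H4K12ac, of which 23, 41, 36 and 61 had a pileup of 2 or more. These made 18.2, 29.7, 25.3 and 26.3 regions per 100 kb beside 10.97, 10.96, 11.001 and 10.94 over the 4 libraries, and without tied rows 4.55, 8.12, 7.13 and 12.1 beside 3.03, 5.24, 5.18 and 9.52. The Kac lists are several times longer than the Kbu lists.

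Against all genes, 0 of 9 members with an H3K18bu region in both replicates stood beside 14.4% of RefSeq genes, and 0 of 9 for H4K12bu stood beside 21.9%. Wider windows hold more regions, so that genes of like length were set beside the members as well. Of protein-coding genes with windows of 20 to 40 kb, the range that holds 6 of the 9 members, 13.3% had an H3K18bu region and 26.8% an H4K12bu region in both replicates. Of those with windows of 100 to 150 kb, where Ptprc, Ikzf1 and Ikzf3 fall, the shares were 33.7% and 44.0%. For the acetyl marks, 5 of 9 members had a region in both H3K18ac replicates and 6 of 9 in both H4K12ac replicates, beside 46.4% and 46.7% of RefSeq genes, 45.8% and 46.6% of genes with the shorter windows and 82.5% and 86.9% of those with the longer. Without the tied rows the members came to 2 of 9 and 6 of 9, beside 33.5% and 42.1% of RefSeq genes, 33.4% and 43.2% of genes with the shorter windows and 67.7% and 84.1% of those with the longer. For Kbu the members were thus at 0, a count that 9 genes define only coarsely.

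**Figure D2:**
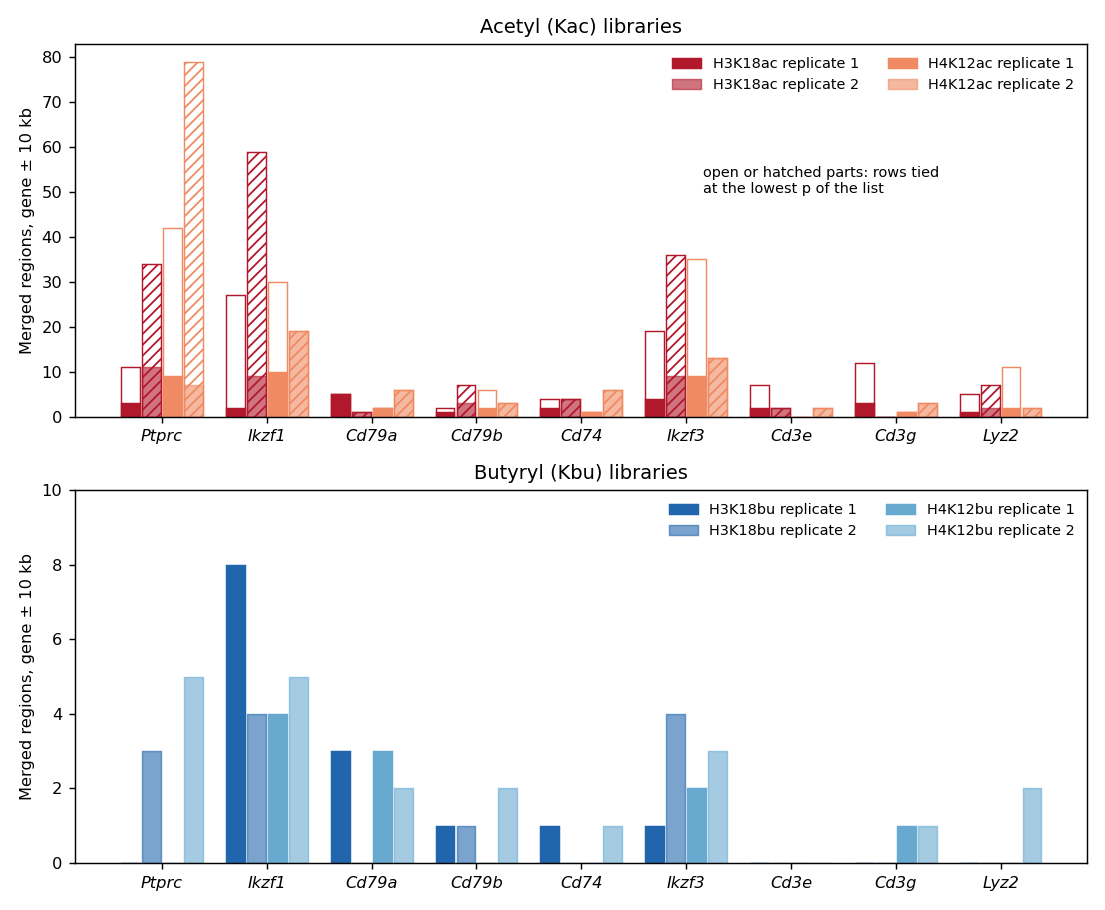
Merged regions in the gene plus or minus 10 kb (y axis, counts) for the 9 members (x axis) in the 4 acetyl libraries (top) and the 4 butyryl libraries (bottom, on its own scale), with filled bars for regions above the lowest p of a list and open or hatched parts for acetyl regions tied at it. Ptprc reached 79 regions in H4K12ac replicate 2, 7 of them without tied rows, and Ikzf1 with 8 in H3K18bu replicate 1 had the highest butyryl count.

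Epithelial genes were set beside the members. Colon epithelium and whole large intestine both hold epithelial cells, so that these counts cannot decide between the label and the methods. Of 23 genes of intestinal epithelium, 15 had an H3K18bu region and 15 an H4K12bu region in both replicates, and 22 had an acetyl region with q below 0.05 in at least 1 library, beside 78.8% of protein-coding genes and 6 of the 9 members. Cdx1, a homeobox factor of the intestinal lining, had the most of the 23 genes, with 7 H3K18bu and 3 H4K12bu regions in both replicates. The Kbu libraries listed 14, 17, 11 and 16 regions at its window of 37.3 kb. Ikzf1, with a window of 108 kb, had 8, 4, 4 and 5 in the same libraries. Not every epithelial gene was like Cdx1, and Muc2, with a window of 84.4 kb, had 1, 2, 1 and 3. A region in both replicates of at least 1 Kbu mark stood at 20 of the 23, and at none of Fcgbp, Krt20 and Tff3. A butyryl region with q below 0.05 stood at 10 of the 23 epithelial genes, at 16.6% of protein-coding genes and at 0 of the 9 members.

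Ptprc encodes CD45, the receptor tyrosine phosphatase on the surface of nucleated blood cells. The gene lies at chr1:138062859-138175756 of GRCm38, and its window of 133 kb was the longest of the members. H3K18ac listed 11 and 34 regions there in replicates 1 and 2, and H4K12ac listed 42 and 79. Without tied rows the counts were 3, 11, 9 and 7. The spread of the 4 Kac counts therefore lay for the most part in rows of pileup 1. H3K18bu listed 0 and 3 regions, and H4K12bu listed 0 and 5, so that both butyryl marks had regions in the second replicate and none in the first.

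At Ptprc 1 stretch within the gene stood above the rest. At chr1:138154256-138154815 both H4K12ac replicates had q below 0.05, with pileups of 4 and 5, folds of 4.42 and 5.04 and −log10 p of 6.53 and 7.26. H3K18ac replicate 2 had a pileup of 2 at the same place, and H3K18ac replicate 1 listed nothing there. H3K18bu replicate 2 had 1 region there and H4K12bu replicate 2 had a pair of 73 bp, chr1:138154256-138154328 and chr1:138154445-138154517, each with a pileup of 1, so that 5 of the 8 libraries listed the stretch. The H3K18bu row, chr1:138154408-138154596, was the same to the base as a row of H4K12ac replicate 2. Such equal rows were 3 of the 57 butyryl regions at the members, and over whole lists 2.14, 1.88, 2.22 and 1.10% of the rows of the 4 Kbu libraries were equal to a row of another library. Whether equal rows are shared fragments was not tested.

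Of 11 regions in both H4K12ac replicates and 4 in both H3K18ac replicates at Ptprc, 1 and 0 were left without tied rows. The promoter table of RefSeq lists 2 starts for the gene, and neither window, 250 bases before to 50 after a start, held a region in any of the 8 libraries. Beside these windows, H3K18ac replicate 2 had a region over the upper end of the gene. It was chr1:138175610-138175972, with a pileup of 2 and a fold of 2.72, and was not tied. The butyryl region nearest to that end, chr1:138176229-138176409 in H3K18bu replicate 2, lay just outside the gene.

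Ikzf1 encodes Ikaros, a zinc finger factor that B and T cells need for their development. It had the most butyryl regions of the members, 8 and 4 for H3K18bu replicates 1 and 2 and 4 and 5 for those of H4K12bu, 21 in all, 18 of them inside the gene at chr11:11684962-11772930. In H3K18bu replicate 1 this made 7.41 regions per 100 kb, beside 3.18 over chromosome 11, and in the other 3 libraries 3.70, 3.70 and 4.63 stood beside 2.67, 2.60 and 5.03. No place was shared by the replicates of a mark. Across marks, H3K18bu replicate 1 and H4K12bu replicate 2 overlapped at chr11:11697417-11697594 and again at chr11:11726400-11726621. The one member region with a butyryl pileup of 2 was chr11:11736477-11736753 in H4K12bu replicate 2, with a fold of 2.91, −log10 p of 5.39 and −log10 q of 1.15, which lies short of q = 0.05.

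Acetyl lists held 27 and 59 regions at Ikzf1 for H3K18ac and 30 and 19 for H4K12ac, and 2, 9, 10 and 19 without tied rows. H4K12ac replicate 2, which kept no tied row on this chromosome, was thus the lowest of the 4 with tied rows and the highest without. The strongest stretch in both H4K12ac replicates was chr11:11678635-11679122, before the gene in the lncRNA gene Gm11999, with pileups of 3 and 3, q below 0.05 in both replicates and no butyryl row. H3K18ac had 1 stretch in both replicates without tied rows, chr11:11728889-11729333 inside the gene, with pileups of 2 and 2, and H4K12ac replicate 2 had a pileup of 3 there. A further H4K12ac stretch inside the gene, chr11:11755234-11755957, had pileups of 2 and 2.

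Around the start of Ikzf1 lay 3 H3K18bu rows of replicate 1. The first, chr11:11685106-11685307, overlapped an H4K12ac stretch at chr11:11684711-11685213 that had pileups of 1 and 2. The second, chr11:11685743-11685946, lay within the promoter window of the first RefSeq start, chr11:11685675-11685974, where no acetyl row was listed. The third, chr11:11690174-11690393, reached into the window of the other start. The first window was among the richest in CpG of all promoter windows, with 52 CpG and 81.3% of G and C. Only 0.575% of the 32851 windows in the table held as many CpG, and the median was 7.

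Promoter sequence is shown for 1 gene of each lineage, because the lists hold rows over some of these starts and none over others. Each line gives bases before the RefSeq start of GRCm38.p6 on the strand of the gene, with CpG in capitals. For Ikzf1, whose window lies inside the gene, the 30 bases under the H3K18bu row with the most CpG, chr11:11685764-11685793 on the plus strand, are shown. The others are the 250 bases before the start, chr7:24897247-24897496 on the plus strand for Cd79a, chr9:44980432-44980681 on the minus strand for Cd3g and chr10:117282273-117282522 on the minus strand for Lyz2.
Ikzf1: cCGcCGcCGccCGgctaccctCGgCGgcCG
Cd79a: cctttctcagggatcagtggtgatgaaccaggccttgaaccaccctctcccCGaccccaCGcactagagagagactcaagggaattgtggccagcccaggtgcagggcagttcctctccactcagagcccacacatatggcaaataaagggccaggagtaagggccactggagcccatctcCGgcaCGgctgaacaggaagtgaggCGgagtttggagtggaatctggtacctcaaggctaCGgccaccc
Cd3g: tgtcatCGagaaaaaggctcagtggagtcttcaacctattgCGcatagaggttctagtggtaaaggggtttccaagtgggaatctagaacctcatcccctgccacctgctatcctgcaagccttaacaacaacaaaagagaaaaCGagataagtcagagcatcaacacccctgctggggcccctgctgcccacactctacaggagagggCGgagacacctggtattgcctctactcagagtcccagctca
Lyz2: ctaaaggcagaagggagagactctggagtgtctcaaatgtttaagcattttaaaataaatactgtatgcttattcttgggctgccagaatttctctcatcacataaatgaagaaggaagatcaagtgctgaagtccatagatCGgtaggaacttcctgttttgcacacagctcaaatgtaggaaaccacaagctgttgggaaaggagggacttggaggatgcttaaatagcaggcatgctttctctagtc
These stretches held 7, 6, 4 and 1 CpG. The window of Lyz2 was overlapped by 2 acetyl rows, that of Ikzf1 by 1 butyryl row, and those of Cd79a and Cd3g by no row of any library. The letters GGAA, the core that ETS factors of blood cells read, counted on both strands, occurred 4 times in the 300-base window of Cd79a, 2 times in that of Cd3g and 5 times in that of Lyz2. The first window of Ikzf1 held 0 and the second held 6. As many or more were found in 46.3% of all windows for Cd79a, 84.6% for Cd3g, 28.6% for Lyz2 and 15.7% for the second window of Ikzf1. Promoter windows were matched for 6 of the 9 members.

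**Figure D3:**
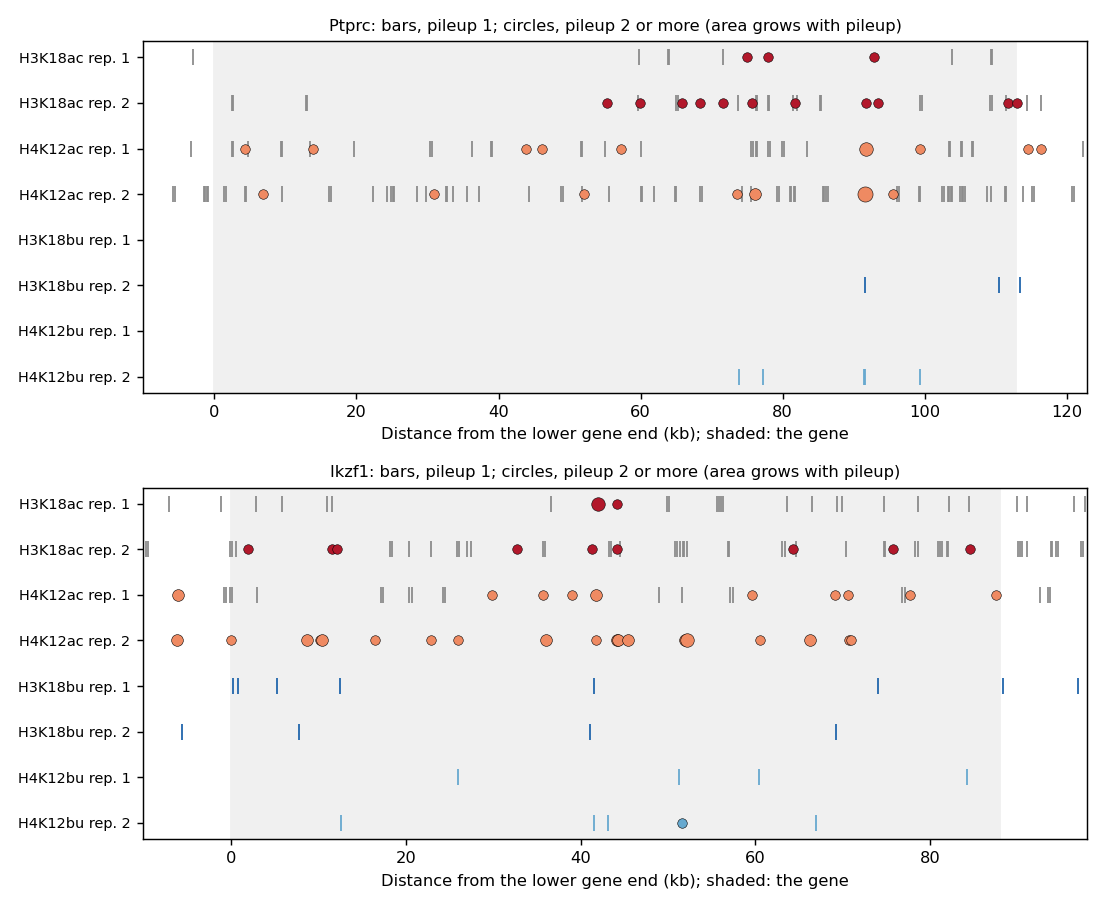
Regions along Ptprc (top) and Ikzf1 (bottom), with the distance of a region's middle from the lower gene end in kb (x axis) and 1 line per library (y axis); bars are pileups of 1, circles pileups of 2 or more with an area that grows with the pileup, and the shaded part is the gene. At Ptprc, H4K12ac replicates 1 and 2 have their largest circles, 4 and 5, at the same place, where both second butyryl replicates have bars, and at Ikzf1 the butyryl bars of the replicates of a mark do not coincide.

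Among the B cell genes, Cd79a and Cd79b encode Ig-alpha and Ig-beta, the chains through which the B cell receptor signals. Cd79a, at chr7:24897497-24901858, had 3 and 0 regions for H3K18bu replicates 1 and 2 and 3 and 2 for those of H4K12bu. Of these 8 butyryl regions 1 lay in Cd79a itself, in H4K12bu replicate 2, and 6 lay in the genes beside it, Arhgef1, a gene of leukocyte signalling, and Rps19, a ribosomal protein gene that all cells use. H3K18bu replicate 1 and H4K12bu replicate 2 shared a place in Arhgef1, chr7:24905024-24905191. The butyryl values of this window thus belong for the most part to its neighbours. H3K18ac listed 5 and 1 regions and H4K12ac 2 and 6, none of them tied. The single acetyl stretch in both replicates, chr7:24890286-24890416 for H4K12ac with pileups of 2 and 2, also lay outside the gene, towards Rps19.

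Cd79b, at chr11:106311341-106314562, was the only B cell gene with an acetyl stretch in both replicates on the gene itself that did not depend on tied rows. H4K12ac had pileups of 2 and 4 at chr11:106313299-106313815, H3K18ac replicate 2 had 3 and H3K18bu replicate 1 had 1 at the same place. H3K18ac listed 2 and 7 regions and H4K12ac 6 and 3, and 1, 3, 2 and 3 without tied rows. H3K18bu listed 1 and 1 regions and H4K12bu 0 and 2. Both H3K18bu replicates had their region within the gene, at chr11:106313689-106313857 and chr11:106314110-106314281, which do not overlap. The H4K12bu pair lay in the neighbours Gh, the growth hormone gene, and Scn4a, a sodium channel gene of muscle.

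Cd74 encodes the invariant chain that escorts MHC class II molecules in B cells and other antigen-presenting cells. At chr18:60803849-60812652 H3K18ac listed 4 and 4 regions and H4K12ac 1 and 6, and 2, 4, 1 and 6 without tied rows, with no acetyl stretch in both replicates of a mark. H3K18bu listed 1 and 0 regions and H4K12bu 0 and 1. The H4K12bu region lay in the gene and the H3K18bu region beside it, each with a pileup of 1.

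Ikzf3 encodes Aiolos, a relative of Ikaros in maturing B cells that some T cells use as well. At chr11:98464610-98546031 H3K18bu listed 1 and 4 regions and H4K12bu 2 and 3. Of these 10 regions, 3 lay in Ikzf3 and 3 in Mien1, a small gene in the flank. H3K18ac listed 19 and 36 regions and H4K12ac 35 and 13, and 4, 9, 9 and 13 without tied rows. The 2 acetyl stretches in both H4K12ac replicates that held without tied rows were again in the flanks, chr11:98457795-98458307 at Mien1 with pileups of 2 and 2 and chr11:98550993-98551709 near Zpbp2 with pileups of 2 and 3. Each was met by 1 H4K12bu row, the first in replicate 1 and the second in replicate 2. With tied rows counted, Ikzf3 had 7 stretches in both H3K18ac replicates, 1 of them, chr11:98463462-98463793 at a gene end, with a row of H3K18bu replicate 2 on it.

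The T cell genes Cd3e and Cd3g encode the epsilon and gamma chains of the CD3 complex, which carries the signal of the T cell receptor. Over chromosome 9 the Kbu libraries listed 2.57, 2.10, 2.12 and 4.07 regions per 100 kb. Cd3e, at chr9:44998735-45009663, had none in any of the 4 Kbu libraries, and Cd3g, at chr9:44969572-44980431, had 0 and 0 for H3K18bu and 1 and 1 for H4K12bu, both outside the gene, which made 3.24 regions per 100 kb in each H4K12bu replicate. The H4K12bu rows lay at different places, chr9:44966884-44967052 in replicate 1 and chr9:44965352-44965593 in replicate 2. The second fell on the H4K12ac stretch chr9:44965220-44965844 in the neighbour Ube4a, a ubiquitin ligase gene, where pileups were 2 and 3 in the H4K12ac replicates and 2 in H3K18ac replicate 1.

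At Cd3e H3K18ac listed 7 and 2 regions and H4K12ac 0 and 2, and 2, 2, 0 and 2 without tied rows. At Cd3g H3K18ac listed 12 and 0 regions and H4K12ac 1 and 3, and 3, 0, 1 and 3 without tied rows. The high values of H3K18ac replicate 1 at both genes were thus mostly tied rows, which no other list kept on chromosome 9. Cd3e had 1 stretch in both H3K18ac replicates, chr9:44998126-44998361 at a gene end, with pileups of 2 and 2. The windows of the pair overlap in part, and no region was counted for both.

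Lyz2 encodes the lysozyme of macrophages and neutrophils and lies beside Lyz1, a near-identical copy expressed by Paneth cells, so that reads may be split between them. At chr10:117277541-117282272 H3K18bu listed 0 and 0 regions and H4K12bu 0 and 2, both in the flanks and with a pileup of 1. H3K18ac listed 5 and 7 regions and H4K12ac 11 and 2, and 1, 2, 2 and 2 without tied rows. The order of the Kac libraries at Lyz2 thus rested on the tied rows. The start of the gene was covered by an H3K18ac row of replicate 2, chr10:117282221-117282541, with a pileup of 2, a fold of 2.69 and −log10 p of 3.61, and by a tied H4K12ac row of replicate 1. Replicate 1 of H3K18ac listed nothing there. Another H3K18ac stretch, chr10:117284712-117285151 in the flank, had pileups of 1 and 3, and H4K12ac replicate 2 had 3.

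By place, the butyryl regions at gene ends were all H3K18bu. Within 1 kb of either end of a member lay 5 of the 14 regions of H3K18bu replicate 1, 3 of the 12 of replicate 2, and none of the 10 and 21 of the H4K12bu replicates. As shares these are 35.7, 25.0, 0 and 0%, beside 15.0, 15.4, 18.9 and 17.8% over protein-coding genes. Of the 8 regions, 3 were at Ikzf1, 2 at Cd79b and 1 each at Cd79a, Ikzf3 and Ptprc. Each of the 8 had a pileup of 1 and was 169 to 213 bp long, and the difference between the residues at the members was not tested. Over all 57 regions, 32 overlapped a member gene, 13 a neighbouring gene and 12 neither. Lying whole within the windows were Cd3d, the third CD3 chain, in that of Cd3g, the miRNA gene Mir5107 in Cd74 and the pseudogenes Gm25106 in Ikzf3 and Gm18667 beside Ptprc, and Cd3d held no butyryl region of its own.

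The overlap of butyryl regions at the immune genes with acetyl rows was measured next. A row of the same residue in either Kac replicate overlapped 5 of 14 and 4 of 12 H3K18bu regions, or 35.7% (exact 95% Clopper-Pearson interval 12.8 to 64.9%) and 33.3% (9.92 to 65.1%). For H4K12bu 4 of 10 and 10 of 21 regions met one, or 40% (12.2 to 73.8%) and 47.6% (25.7 to 70.2%). Over all regions of these libraries the shares were 38.4, 39.99, 35.9 and 33.0%, each inside the interval of the members. Without tied acetyl rows the members had 28.6, 25, 40 and 38.1% beside 33.3, 35.3, 34.3 and 31.4%. The intervals cover counting error only and are wide, so that a share far from that of all regions could not have been told from it. Regions in both Kbu replicates met acetyl rows more often over the genome, 76.1% for H3K18bu and 69.9% for H4K12bu (74.1% and 69.5% without tied rows), but the members had none of these.

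The difference between Kbu and Kac was tested for every gene with a region in at least 1 library, as regions per 100000 regions of the library, which adjusts for the length of the lists. With the two-sided exact permutation test over the 70 assignments of 4 against 4 libraries and Benjamini-Hochberg adjustment, 0 of 47102 genes were called, 0.0%, and the smallest adjusted p was 0.199. An adjusted p below 0.05 would need 57.1% of the genes at the smallest p, so that a count of 0 says little about the size of differences. At an unadjusted exact p below 0.05 there were 6765 of the 47102 genes, 4137 higher and 2628 lower in Kbu, where 0.0286 is the smallest p that 4 against 4 libraries can give. These counts include the tied acetyl rows, which scaling by list length does not even out between chromosomes. H4K12ac replicate 1, for instance, listed 29.3 regions per 100 kb on chromosome 1 and 6.06 on chromosome 2. How far the row limit made this split was not tested. Both residues entered 1 test because 2 against 2 libraries cannot go below 0.333. The 2 residues and the diet label share these groups, so that the comparison sets mark and diet together against each other.

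None of the 9 members was called. Ptprc had 3.68, 11.4, 14.02 and 26.5 regions per 100000 in the Kac libraries and 0, 5.92, 0 and 5.19 in the Kbu libraries, in the order of the counts above. The means were 13.9 ± 9.49 and 2.78 ± 3.22 (SD, n = 4 each), a difference of -11.1 with exact p = 0.0857 and adjusted p = 0.374. The groups overlapped, since H3K18ac replicate 1 lay below both second Kbu replicates. Without tied rows the difference was -2.33, with exact permutation p = 0.257 and adjusted p = 0.971. With the strongest 50645 regions of every library, the length of the shortest list, it was 0 (exact p = 1), and with rows of q below 0.05 it was -2.52.

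Lyz2 had 1.67, 2.35, 3.67 and 0.672 regions per 100000 in Kac and 0, 0, 0 and 2.08 in Kbu, a difference of -1.57 (exact p = 0.0857, adjusted p = 0.374). The groups overlapped through H4K12bu replicate 2, which was higher than 2 of the Kac libraries. Without tied rows the difference at Lyz2 was -0.682 (exact p = 0.229, adjusted p = 0.971), and with all rows but the gene body alone it was -0.418 (exact p = 0.143, adjusted p = 0.553). With all rows, Cd79a was the one member with a higher mean in Kbu, 3.23 ± 2.69 against 1.17 ± 0.80 (SD, n = 4 each, exact p = 0.257, adjusted p = 0.608), with 4.94, 0, 5.89 and 2.08 in Kbu and 1.67, 0.335, 0.668 and 2.02 in Kac. The lowest value of both groups was a Kbu library, so that this difference was within the spread of replicates. It was 0.748 within 2 kb of the gene (exact p = 0.543, adjusted p = 0.909) and 0.092 within the gene body (exact p = 1), against 2.05 with the flanks of 10 kb. Without tied rows the difference at Cd79a was 0.603 (exact p = 0.857, adjusted p = 1), and Ikzf1 was higher in Kbu as well, by 2.74 (exact p = 0.286, adjusted p = 0.971). Leaving out the ties took every pileup of 1 from Kac, whereas Kbu kept such rows. With a pileup of at least 2 in all libraries Ikzf1 came to -3.37 (exact p = 0.314, adjusted p = 0.641) and Cd79a to -2.62, where 1 of the 57 butyryl regions remains. Cd3e had 0 in all 4 Kbu libraries and 2.34, 0.670, 0 and 0.672 in Kac (exact p = 0.143, adjusted p = 0.426), a difference of -0.922, and of -1.15 without tied rows (exact p = 0.143, adjusted p = 0.865). The other 5 members had differences between -4.47 at Ikzf3 and -0.083 at Cd79b, with adjusted p from 0.426 to 1, and overlapping groups. Without tied rows Ikzf3 came to -1.49 (exact p = 0.314), Cd74 to -1.39 (exact p = 0.0857), Cd3g to -0.625 (exact p = 0.629) and Cd79b to -0.049 (exact p = 0.943), with adjusted p of 0.971, 0.865, 1 and 1.

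Other genes of the same cell types stood beside the members in lists of markers. Regions were given to them by the same windows with flanks of 10 kb, so that some belong to neighbouring genes. Of 21 further pan-leukocyte genes, 5 had an H3K18bu region and 6 an H4K12bu region in both replicates, beside 20.5% and 33.7% of all protein-coding genes. Ptpn6, the phosphatase SHP-1 of blood cells, which epithelial cells express as well, led them with 3 H3K18bu and 5 H4K12bu regions in both replicates and 11, 10, 12 and 11 regions in the 4 Kbu libraries at a window of 38.0 kb. Runx1, a factor of blood cell development, held 1 and 6 at a window of 245 kb, and Vav1, an exchange factor of lymphocyte signalling, held 1 and 2. With regions on the gene itself alone, 5 and 3 of the 21 remained, beside 13.9% and 23.2% of protein-coding genes, and Ptpn6 held 1 and 2. The shares were above those of all protein-coding genes for H3K18bu and below them for H4K12bu, with either window, and neither was tested.

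The B cell list of 17 genes had 6 with an H3K18bu and 4 with an H4K12bu region in both replicates, and 4 and 2 with regions on the gene itself alone. Bach2, a repressor in B cells, held 2 of each, Blnk, an adaptor of B cell receptor signalling, also held 2 of each, and Fcer2a, the low-affinity IgE receptor, held 1 of each. On the gene itself Bach2 held 1 and 2, Blnk 1 and 0 and Fcer2a 0 and 0. Bach2 has a window of 368 kb and its Kbu libraries listed 12, 10, 14 and 25 regions, whereas Fcer2a at 33.9 kb had 1, 1, 2 and 4. Plasma cell genes had 2 and 2 of 8 with the flanks, and 2 and 2 on the gene itself. Prdm1, the factor BLIMP-1 that drives plasma cell formation and is also active in gut epithelium, held 3 and 2 regions in both replicates, Sdc1, a surface proteoglycan of plasma cells and epithelium, held 2 and 3, and Derl3, which serves degradation of misfolded proteins, held 0 and 0. MHC class II genes had 1 and 3 of 7 with the flanks, with 1 and 1 regions at H2-DMa, 0 and 1 at Ctss and 0 and 1 at H2-Eb1. On the gene itself this list had 1 and 1, with 0 and 0 at Ctss and at H2-Eb1.

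The list of T cell, NK cell and innate lymphoid genes had 1 and 7 of 27 (0 and 2 with regions on the gene itself alone), the lowest share for H3K18bu among the immune lists. Nkg7, a granule protein of cytotoxic cells, held 2 H3K18bu and 1 H4K12bu regions in both replicates (0 and 0 on the gene itself). Cd247, the CD3 zeta chain, held 0 and 1 (0 and 0 on the gene itself). Among 27 myeloid genes 6 and 6 had a region in both replicates (4 and 2 on the gene itself). Cd14, a receptor for bacterial lipopolysaccharide, held 1 and 2 (1 and 1 on the gene itself). Fcer1g, a signalling chain of Fc receptors, held 1 and 2, and Cd68 of macrophage lysosomes held 1 and 1 (each 0 and 0 on the gene itself). Smooth muscle and fibroblast genes had 1 and 4 of 14 (0 and 1 on the gene itself). Pdgfrb, a growth factor receptor of mural cells, held 1 and 1 regions (0 and 0 on the gene itself), and its window overlaps that of the epithelial gene Cdx1. Tagln and the collagen gene Col1a1 held 0 and 1 each (0 and 0 and 0 and 1 on the gene itself). Endothelial genes had 1 and 1 of 6 (0 and 1 on the gene itself). Pecam1, an adhesion molecule that leukocytes carry as well, held 1 and 2 regions (0 and 1 on the gene itself), and Cdh5 and Emcn held 0 and 0. Enteric neural genes had 0 and 0 of 6, Elavl4 among them. Genes of other tissues had 1 and 2 of 15, with 0 and 2 regions at the sperm protamine gene Prm1, 1 and 0 at Dppa3 of germ cells and 0 and 1 at Prm2. The windows of Prm1 and Prm2 overlap and share a region, so that 1 locus gave both H4K12bu counts, and no gene of this list had such a region on the gene itself. In the epithelial list, Elf3 held 3 and 3 and Cdx2 held 3 and 2 beside the values of Cdx1 above. Among the 11 lists the epithelial one, at 15 and 15 of 23, had the highest shares, and with regions on the gene itself it had 9 and 8, which are given as counts without a test.

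**Figure D4:**
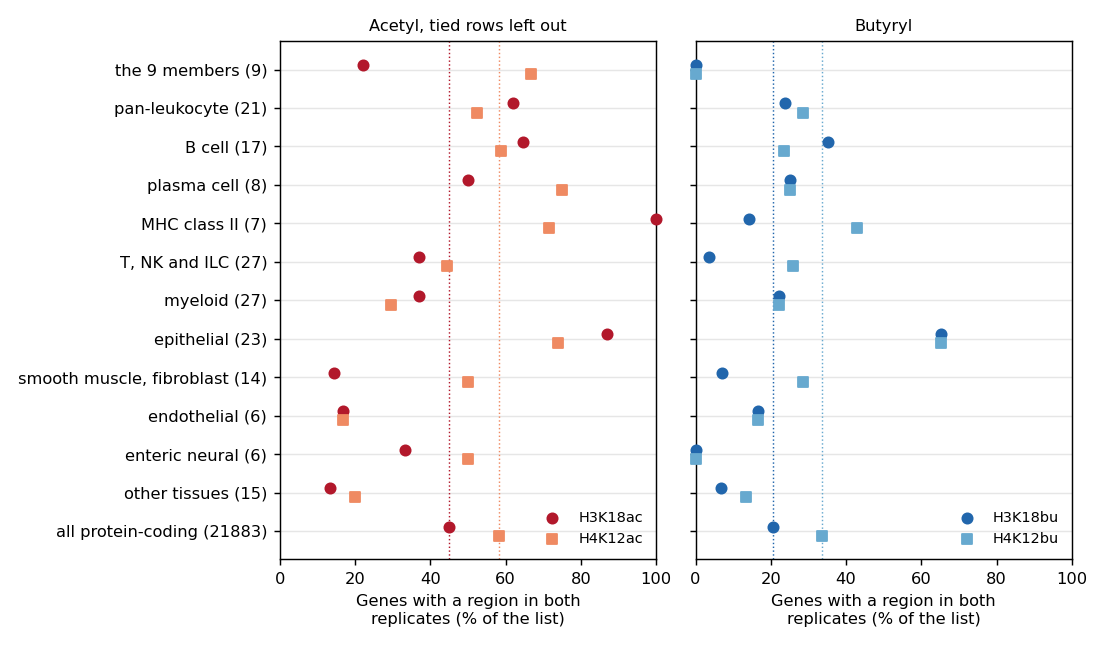
Share of genes with a region in both replicates of a mark (x axis, % of the list) for the 9 members, 11 lists of cell type genes and all protein-coding genes (y axis, number of genes in parentheses), for the acetyl marks without tied rows (left) and the butyryl marks (right), with dotted lines at all protein-coding genes. The members sit at 0 for both butyryl marks and the epithelial list at 65.2% for both.

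Densities per length gave the following. Over the 9 members the median was 0.986, 0, 0 and 3.76 butyryl regions per 100 kb in H3K18bu replicates 1 and 2 and H4K12bu replicates 1 and 2. Protein-coding genes had medians of 2.53, 1.78, 2.76 and 5.47, and epithelial genes had 16.3, 11.5, 9.29 and 15.2. For the acetyl marks without tied rows the members' medians of 4.31, 8.28, 8.09 and 12.8 regions per 100 kb lay beside 3.77, 7.16, 8.67 and 14.9 for protein-coding genes. The further pan-leukocyte genes had butyryl medians of 4.88, 2.59, 2.84 and 7.33, all above those of protein-coding genes. The other immune lists lay above them in some libraries and below in others. B cell genes had 2.89, 2.34, 1.02 and 2.86, and T cell, NK cell and innate lymphoid genes 1.97, 1.97, 0 and 3.82. Myeloid genes had 2.81, 4.20, 3.22 and 3.99, plasma cell genes 6.67, 4.08, 0 and 8.38 and MHC class II genes 0, 3.25, 3.70 and 5.63. The members' butyryl medians were below those of protein-coding genes, whereas their windows taken as a whole were above the library densities given earlier, and neither was tested. The library densities make no allowance for the chromosomes on which the members lie.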

How the data were processed

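CUT&Tag lists of 8 mouse large intestine libraries were used, and the 4 libraries of human CCD841 cells were not. The submitters' processing notes name bcl2fastq 2.17.1, cutadapt 1.9.1, Bowtie2 2.3.1, MACS2 2.1.0 and mm10 among the builds. The authors deposited 1 peak list per library, called without pooling and without a control. Each row carries the deposited fold, a ratio of pileup + 1 to background + 1, with a −log10 p and a −log10 q, both as the authors deposited them from MACS2. No list holds counts per sample, so that no count model was fitted.

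Pileup and background were solved from fold and −log10 p. For 100% of the rows a whole pileup returned the −log10 p to 0.01. The solver and the permutation test were tested on simulated data. Upper limits for the number of read ends rest on the lowest background, an extension of 73 bp and a genome of 1.87 Gb. Rows that overlapped were merged. A region was in both replicates where regions overlapped by at least 1 bp. Genes, neighbours and promoter windows came from RefSeq tables of GRCm38.p6, the assembly of mm10. The gene table has no strand, so that place was taken from either gene end within 1 kb. Libraries were grouped by the labels, and 4 Kbu were compared with 4 Kac libraries by a two-sided exact permutation test with Benjamini-Hochberg adjustment over 47102 genes.

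The members and the 11 lists of 171 genes were chosen with earlier results of these data known. All members were named, with the 3 genes of each list that had the most regions in both replicates over the Kbu marks and the genes in the windows of members. Some genes that this rule names are not reported here. Alternatives were other windows, row filters, overlaps, permutations and left-out libraries. Leaving out the tied acetyl rows at the gene counts, protein-coding genes alone, and the bodies of list genes without flanks, were added after the data had been seen. Python 3.11.15, numpy 2.4.6, pandas 2.3.3, scipy 1.17.1 and matplotlib 3.10.9 were used.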

Additional observations from a re-analysis of the deposited data

Results flagged for a closer look

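The regions of each member were examined for a library far from the others of its acyl group, in 18 groups of 4 libraries. At Lyz2, H4K12bu replicate 2 had 2.08 regions per 100000 and the other 3 Kbu libraries had 0, so that its gap to the nearest was the whole range of the group. The value stands for 2 rows with a pileup of 1 in the flanks of the gene. With 3 values of 0, any other value in the fourth library meets this criterion whatever its size, so that the rate of about 1 in 20 groups that chance gives for continuous values does not hold here.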

How the results depend on the processing

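No gene was called under any alternative, which says nothing of stability, since a call would need 57.1% of the genes at the smallest exact p and cannot be made in a replicate block. Of 159 values of single members, 147 kept the direction of Kbu minus Kac, 1 was 0 (Ptprc with lists shortened to the strongest 50645 regions) and 11 turned. The direction turned at Ikzf1 without the tied acetyl rows (2.74), with these shortened lists (5.43) and without H3K18ac replicate 2 (0.047). It turned at Cd74 with these shortened lists (0.987), at Cd79a with a pileup of at least 2 (-2.62), at Cd3g without H3K18ac replicate 1 (0.303), and at Cd79b within the gene body (0.486), within 2 kb (0.402) and without H3K18ac replicate 2 (0.197), H4K12ac replicate 1 (0.083) or H4K12bu replicate 1 (0.392). With a pileup of at least 2, Ptprc (-5.11), Cd79a, Cd79b (-1.47), Cd74 (-2.06), Ikzf3 (-5.64) and Lyz2 (-1.20) had all Kac above all Kbu libraries (exact p = 0.0286, adjusted p = 0.114), where 1 of the 57 butyryl regions remains. The whole Kbu lists held 6125, 4727, 4365 and 10337 regions of that height, beside 82524, 142541, 141066 and 259300 in Kac. A Kbu count of 0 thus cannot be told apart from low depth. The share of all genes at this exact p was not counted, so that the separation is no result about these members. With 1 library left out, differences ranged from -14.5 to -6.92 at Ptprc, from -4.42 to 0.047 at Ikzf1, from -0.362 to 0.392 at Cd79b, from -1.04 to 0.303 at Cd3g, from 1.16 (without H4K12bu replicate 1) to 3.13 (without H3K18bu replicate 2, exact p = 0.0286, adjusted p = 0.231) at Cd79a, from -0.911 (without H3K18bu replicate 1) to -0.334 (without H4K12ac replicate 2) at Cd74, from -1.23 to -0.447 (without H3K18ac replicate 1) at Cd3e, from -5.89 to -3.33 at Ikzf3 and from -2.09 to -1.05 (without H4K12ac replicate 1) at Lyz2. The lowest value of Ptprc (without H3K18ac replicate 1) and of Cd3e (without H4K12ac replicate 1) also reached exact p = 0.0286, with adjusted p = 0.270 and 0.287, and the highest of Ptprc was without H4K12ac replicate 2. With a replicate block, which permutes within replicate numbers, 36 assignments allow a smallest p of 0.0556 and Ptprc reached exact p = 0.0556 with an adjusted p of 0.321. The block changed no call, and the numbers of Kac and Kbu libraries do not name shared animals. Counts of regions in both replicates have no value without a replicate.

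Members with a region in both replicates, and such regions, came to 0 and 0 for H3K18ac and 2 and 2 for H4K12ac with q below 0.05, to 1 and 1 for H3K18ac and 2 and 2 for H4K12ac with these shortened lists, and to 2 and 2 for H3K18ac with a pileup of at least 2 or without tied rows, where H4K12ac had 8 regions. The share of Kbu regions that met acetyl rows fell to 0 and 8.33% for H3K18bu and 10 and 23.8% for H4K12bu where both acetyl replicates were asked for, and to 0, 8.33, 0 and 14.3% with acetyl q below 0.05. Over all Kbu regions the shares fell likewise, to 16.0, 17.2, 12.7 and 10.6% and to 16.8, 18.03, 15.8 and 13.5%. With acetyl rows of either residue the members had 35.7, 41.7, 70 and 61.9%, beside 52.8, 52.5, 51.6 and 47.6% of all Kbu regions.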
